A study of Rattus norvegicus with 24 samples.

Results

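The receptors for neurotransmitters and for extracellular purines were examined in rat mesenteric arteries. Every probe with a single gene symbol was taken whose symbol begins with P2rx, P2ry, Adora, Htr and a digit, Drd, Hrh, Chrm, Chrn, Gabr, Gria, Grik, Grin and a digit, or Grm and a digit. This gave 97 probes of 76 genes, out of 10399 probes on the array, of which 7294 carry a single symbol and stand for 6455 genes. P2rx4, Htr1b and Drd1 were not analysed here.

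The arteries came from 12 female Sprague Dawley rats, 5.5 weeks old, whose ovaries had been removed at 3 weeks of age, with 2 weeks allowed for recovery. Intraperitoneal injections were given for 4 days, and the groups were sesame oil (vehicle), estradiol benzoate at 0.15 mg per kg per day, an injectable ester of the estrogen estradiol, and testosterone at 1 mg per kg per day, the main androgen. Each group held 4 animals, named here by the numbers of their labels, and the cRNA of an animal was hybridised to 2 one-colour CodeLink arrays. Vehicle animals lacked their ovaries as well, so that all comparisons are between young animals without ovarian hormones and like animals given 1 hormone, and the sample is the whole dissected artery.

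Sympathetic nerves around a small artery release noradrenaline together with ATP, which acts on P2X ion channels of the smooth muscle; ATP, ADP and UTP also act on G protein-coupled P2Y receptors, and adenosine, formed when ATP is broken down, acts on its own receptors. Serotonin, histamine, acetylcholine and dopamine reach the artery from platelets, mast cells, nerves and blood and act through muscle or endothelium. Receptors for GABA and glutamate are known mainly from synapses of the brain, and nicotinic receptors from skeletal muscle and nerve cells. Tissues can convert testosterone to estradiol.

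Values are log2 of the deposited spot intensity, averaged over the 2 arrays of an animal. Array medians lay between 0.926 and 0.951 in intensity, with 152 to 665 blank spots per array. The data used held no detection flags. A background level was set in each animal as the 95th percentile of 50 probes for genes of other tissues. These were genes of odorant receptors, photoreceptors, lens, sperm and enamel, with the egg coat gene Zp1 among them. The level lay between -0.12 and 0.39 on the log2 scale, an intensity of 0.921 to 1.31. A probe counts as above background in a group where all 4 animals exceed their own level. Of 15 endothelial markers measured, 9 lay above background in all 12 animals, Pecam1, Tek and Vwf among them. Another 5, with Kdr, Ace and Edn1 among them, did so in none. Of 11 smooth muscle markers, 6 lay above background in all 12 animals, Smtn, Itga8 and Kcnmb1 among them, and 2 in none. Myh11, Cnn1 and Tagln, also smooth muscle markers, had values in 1, 7 and 5 animals. The intensities of different probes depend on the probe, so that a brighter probe does not mean a more abundant transcript, and in a whole artery fewer cells of a type and less RNA per cell cannot be told apart.

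Most of these receptors could not be told from background. Only 6 of the 97 probes (6.19%), for P2rx1 (both probes), P2ry6, Adora3, Htr2c and Gabra5, lay above background in all 12 animals, against 37.7% of all probes of the array. A further 4 probes, for Adora1, Gria3, Grik5 and Grm7, did so in some animals, and 87 probes of 68 genes in none. The 6 probes were the same in each group. Of the 97, 86 were below the median probe of the array in their mean, and 4 lay above the mean of the brightest background probe (Akap4, a sperm protein, at 1.40): Adora3, both P2rx1 probes and P2ry6. With the highest background probe of each animal as the level, only Adora3 and the brighter P2rx1 probe stayed above it in all 12 animals; with the 90th percentile, 10 probes did, the additions being Adora1, Chrna1, Grik5 and Grm7.

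**Figure D1:**
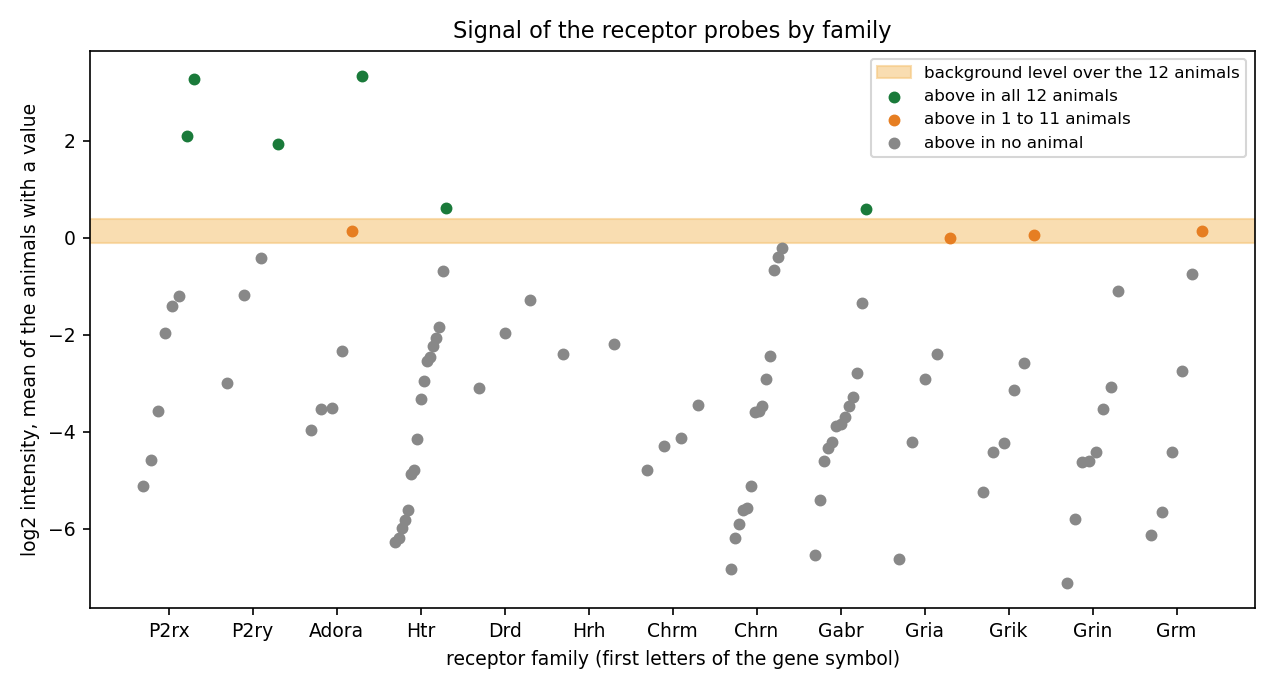
Mean log2 intensity over the animals with a value (vertical axis) for the receptor probes by family (horizontal axis, in the order of description); 1 point is 1 probe and Gabrg1, which has no value, is not drawn. The band spans the background levels of the 12 animals, -0.12 to 0.39; green points, above background in all 12 animals, are found in P2rx, P2ry, Adora, Htr and Gabr, and no Drd, Hrh or Chrm probe reaches the band.

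The P2X channels are opened by ATP, and P2rx1 encodes the subunit of smooth muscle and platelets that carries the fast purinergic contraction. Its brighter probe (21433) read 3.42, 3.62, 3.27 and 3.12 in vehicle animals 3, 4, 5 and 8. With estradiol benzoate it read 3.12, 2.42, 3.53 and 3.04 in animals 2, 3, 5 and 8, and with testosterone 3.63, 3.64, 3.35 and 2.97 in animals 2, 4, 6 and 8. All 3 groups overlapped, and estradiol benzoate animal 3 was the lowest of the 12. The other P2rx1 probe (1019), at a mean of 2.10, was lowest in the same animal, at 1.15, with the other animals between 1.78 and 2.72. Estradiol benzoate minus vehicle was -0.33 (SE 0.22, limma adjusted p 0.516) for the brighter probe and -0.36 (SE 0.25, adjusted p 0.526) for the other.

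Against testosterone both P2rx1 probes were lower with estradiol benzoate, by -0.37 (SE 0.22) and -0.45 (SE 0.25), each at an adjusted p of 0.999, while testosterone minus vehicle was 0.04 and 0.09. Animal 3 of the estradiol benzoate group also had the highest level of 11 pancreas acinar genes, at 6.23 log2 above the mean of the animals, where the others lay between -1.47 and 1.94, and the lowest level of the smooth muscle list, at -0.20; the part of these in the P2rx1 values was not tested. Without that animal the differences from vehicle were -0.13 (SE 0.19) and -0.13 (SE 0.21).

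The other P2X probes lay below background in every animal. P2rx7, the subunit known from macrophages, had group means of -1.21 with vehicle, -1.19 with estradiol benzoate and -1.20 with testosterone, each with an SD between 0.07 and 0.13 (n = 4). Its differences of 0.02 and 0.01 from vehicle (SE 0.09) are among the smallest of the receptors. P2rx2 had a mean of -1.40, and P2rx3, the subunit of sensory nerve endings, was the dimmest of the family at -5.13. P2rx5 lay at -1.97, with an SD between animals of 0.66 on the log2 scale. P2rx6 was measured by a probe at -3.57 and by another that was blank in estradiol benzoate animals 2 and 3 and was not tested.

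Of the P2Y receptors, P2ry6, which responds to UDP and constricts arteries, was bright and even. Its probe read 1.75, 2.08, 1.97 and 1.69 in vehicle animals 3, 4, 5 and 8. It read 1.97, 1.85, 1.97 and 1.95 with estradiol benzoate (animals 2, 3, 5 and 8) and 1.98, 2.03, 2.01 and 1.89 with testosterone (animals 2, 4, 6 and 8). The treated animals all fell within the range of the vehicle group. The difference from vehicle was 0.06 with estradiol benzoate and 0.11 with testosterone (SE 0.10 for both, adjusted p 0.791 and 0.630).

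P2ry2, the receptor for ATP and UTP of endothelium and muscle, lay close to but below the background level, between -0.92 and 0.08. Its group means were -0.19 (SD 0.26, n = 4) with vehicle, -0.46 (SD 0.20) with estradiol benzoate and -0.59 (SD 0.25) with testosterone. Testosterone minus vehicle was -0.39 (SE 0.16, adjusted p 0.324), all 4 testosterone animals lying below the vehicle mean, with overlapping groups. P2ry1, the ADP receptor, lay between -3.46 and -2.69, with a difference of 0.33 (SE 0.14, adjusted p 0.344) with testosterone. P2ry4, which responds to UTP, lay at -1.18 and differed from vehicle by 0.07 and 0.20 (SE 0.09).

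Adora3, an adenosine receptor known from mast cells, gave the brightest receptor probe in its mean of 3.33. It read 3.63, 3.37, 3.46 and 3.25 in vehicle animals 3, 4, 5 and 8. It read 3.33, 3.04, 3.17 and 3.37 with estradiol benzoate (animals 2, 3, 5 and 8) and 3.38, 3.56, 3.19 and 3.19 with testosterone (animals 2, 4, 6 and 8). The groups overlapped, although all 4 estradiol benzoate animals lay below the vehicle mean. Estradiol benzoate minus vehicle was -0.20 (SE 0.12, adjusted p 0.461) and testosterone minus vehicle -0.09 (SE 0.12). Adora3 is the 1 probe of the 97 whose gene ID has no match in the RefSeq gene table used here. In that table a gene named Adora3 lies within the span of Tmigd3. Without the probe sequence, which of their transcripts this probe reads is not known.

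Adora1, the receptor that lowers cyclic AMP, straddled the background level. It read 0.10, 0.16, 0.21 and 0.05 with vehicle (animals 3, 4, 5 and 8), 0.25, 0.09, -0.04 and 0.07 with estradiol benzoate (animals 2, 3, 5 and 8), and 0.37, 0.34, -0.09 and 0.10 with testosterone (animals 2, 4, 6 and 8). In each group 2 of 4 animals exceeded their own level, and the differences from vehicle were -0.04 and 0.05 (SE 0.11). In the RefSeq table Adora1 overlaps Mybph. Both adenosine receptors that relax arteries were below background: Adora2a at -3.51 and -3.54 in its 2 probes, and Adora2b at -2.35 and -3.97. The 2 Adora2b probes gave opposite signs against vehicle, 0.17 (SE 0.11) and -0.40 (SE 0.19) with estradiol benzoate and 0.29 and -0.30 with testosterone, so that no direction can be given for this gene.

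**Figure D2:**
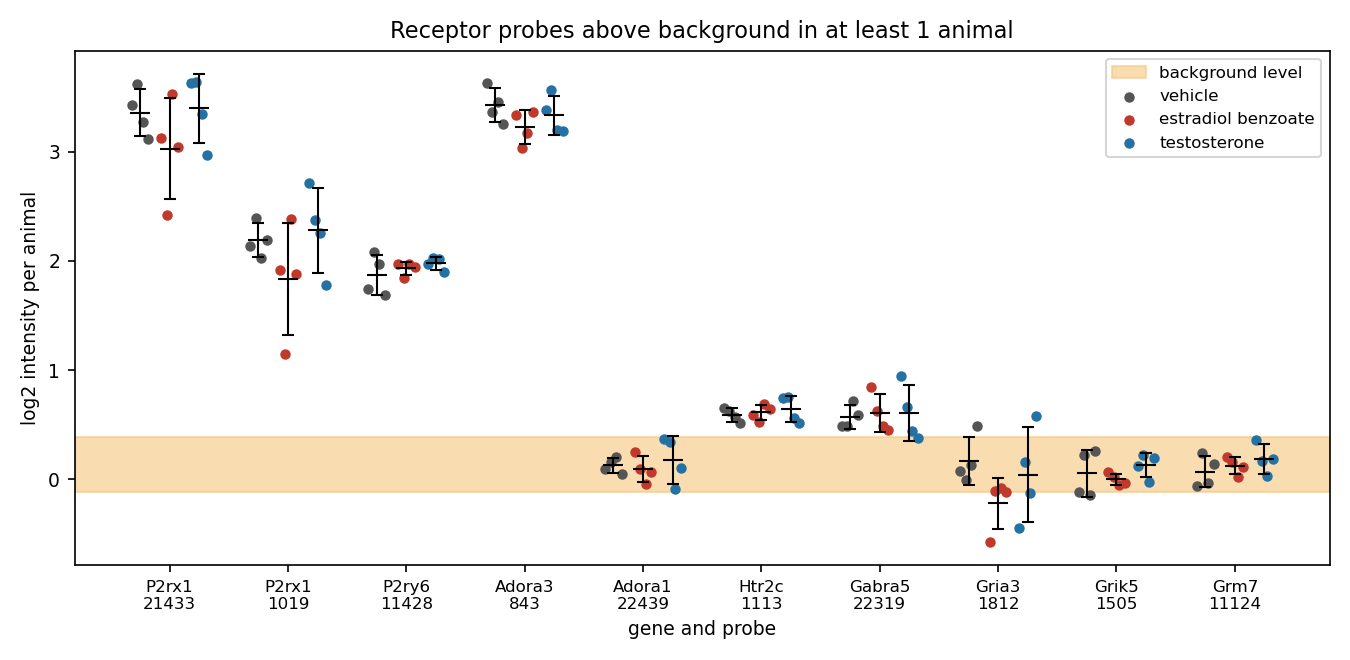
Log2 intensity of each animal (vertical axis) for the 10 probes above background in at least 1 animal (horizontal axis, gene and probe number), by treatment; the bar is the mean and the whiskers 1 SD (n = 4 animals a group). The band spans the background levels of the 12 animals. The 3 groups of each probe lie side by side, and estradiol benzoate animal 3 is the lowest point of both P2rx1 probes, at 2.42 and 1.15.

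Among the 17 serotonin receptor probes (12 genes), 1 was above background. Htr2c, a receptor known mainly from the brain, read 0.66, 0.62, 0.57 and 0.51 with vehicle (animals 3, 4, 5 and 8), 0.59, 0.53, 0.69 and 0.64 with estradiol benzoate (animals 2, 3, 5 and 8), and 0.75, 0.75, 0.56 and 0.52 with testosterone (animals 2, 4, 6 and 8). These values differ little among animals or groups, the differences from vehicle being 0.02 and 0.05 (SE 0.08). The other Htr2c probe (21819) had a mean of -5.61 and was below background in all animals, 6.22 below the first, so that only 1 of the 2 probes of this gene gives a signal; several small RNA genes lie within the span of Htr2c.

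The serotonin receptors known from vessels were all below background. Htr2a, the contractile receptor of smooth muscle, was near the bottom of the scale at -5.99 (SD between animals 0.89), Htr1d at -6.26 and Htr7, a relaxing receptor, at -4.15. Htr2b, found in endothelium and heart valves, lay at -2.23 and -2.96 in its 2 probes and differed from vehicle by -0.09 (SE 0.17) and -0.55 (SE 0.26, adjusted p 0.369) with testosterone. These levels bound only what the probes detect and do not show that a receptor was absent.

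No dopamine, histamine or muscarinic receptor probe reached background. The dopamine receptors Drd3, Drd4 and Drd5 had means of -1.28, -1.97 and -3.10, the histamine receptors Hrh1, of endothelium and smooth muscle, and Hrh3, of nerve endings, -2.41 and -2.20. Chrm3, the endothelial muscarinic receptor through which acetylcholine relaxes arteries, read -4.80, with group means of -4.89, -4.72 and -4.78 for vehicle, estradiol benzoate and testosterone. Chrm2, Chrm4 and Chrm5 lay at -3.45, -4.28 and -4.13. The 14 nicotinic probes (11 genes) spanned -6.83 for a probe of Chrna5 to -0.21 for Chrna1, a subunit of the muscle receptor, whose animals lay between -0.49 and 0.02. Chrnb4, of autonomic ganglia, read -3.46 and -3.57 in its 2 probes.

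Of the 14 probes for subunits of GABA-gated chloride channels (11 genes), Gabra5 alone was above background. It read 0.49, 0.49, 0.72 and 0.59 with vehicle (animals 3, 4, 5 and 8), 0.84, 0.62, 0.49 and 0.46 with estradiol benzoate (animals 2, 3, 5 and 8), and 0.95, 0.66, 0.44 and 0.38 with testosterone (animals 2, 4, 6 and 8). The highest and the lowest of these values both came from the testosterone group, and the differences from vehicle were 0.03 and 0.04 (SE 0.13). The other subunits lay below background, from -6.54 for Gabrd to -1.34 for the brighter probe of Gabrr2, and the Gabrg1 probe was blank on all 24 arrays.

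Ionotropic glutamate receptors were measured by 5 AMPA (Gria), 6 kainate (Grik) and 8 NMDA (Grin) probes, none above background in a whole group. Gria3 read 0.08, -0.01, 0.13 and 0.49 with vehicle (animals 3, 4, 5 and 8), -0.57, -0.10, -0.08 and -0.12 with estradiol benzoate (animals 2, 3, 5 and 8), and -0.44, 0.16, -0.12 and 0.58 with testosterone (animals 2, 4, 6 and 8). All estradiol benzoate animals lay below all vehicle animals, while the testosterone animals spanned both. Estradiol benzoate minus vehicle was -0.39 (SE 0.20, adjusted p 0.415), and 3 vehicle animals, 1 testosterone animal and 0 estradiol benzoate animals exceeded their background level. Grik5, a subunit that joins other kainate subunits, lay between -0.14 and 0.26 and above background in 2 animals, and Grik1 was the dimmest kainate subunit at -5.23. The NMDA probes ran from -7.11 for a probe of Grin3a to -1.11 for a probe of Grin2c. Of the 6 probes for metabotropic receptors (Grm), Grm7 was the highest, between -0.06 and 0.36 and above background in 4 animals, and Grm6, of retinal bipolar cells, the lowest at -6.13.

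For 21 genes 2 probes were present, and they show how far the level depends on the probe. The gap between the 2 means ran from 0.03 (Adora2a) to 6.22 (Htr2c), exceeding 1 in 14 genes and 2 in 8. P2rx1 was the only gene with both probes above background. In the 19 genes with both probes tested, the sign was shared by 11 for estradiol benzoate minus vehicle, 11 for testosterone minus vehicle and 13 for estradiol benzoate minus testosterone.

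**Figure D3:**
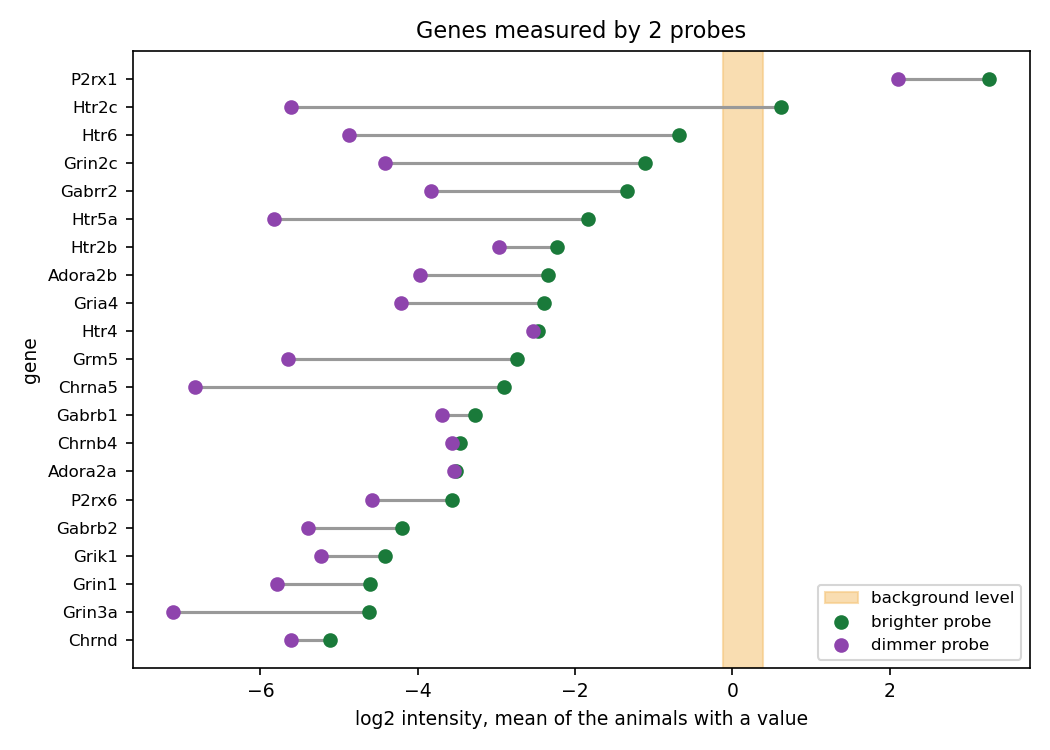
Mean log2 intensity (horizontal axis) of the brighter and the dimmer probe of the 21 genes with 2 probes (vertical axis), joined by a line. The band spans the background levels of the 12 animals; only P2rx1 has both probes above it, and Htr2c has 1 on either side, 6.22 apart.

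The spread was wider at low signal. The median SD between the 2 arrays of an animal was 0.097 for the 6 probes above background and 0.241 for those above it in no animal (0.119 over all probes of the array). Between animals of a group it was 0.177 and 0.274. Of 1164 possible animal values, 1070 came from 2 arrays, 66 from 1 and 28 from none. Vehicle animal 5 had 16 values from 1 array, against 1 to 11 in the others, among them -2.64 for Gabrd, -2.79 for Htr5b and -7.08 for Grm5, each at the end of the vehicle range.

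The comparison of estradiol benzoate with vehicle asked which receptors differ when the estrogen is given. No receptor probe had a limma adjusted p under 0.05, and of all 10228 tested probes 0.0% did. The differences were small: the median over the 94 receptor probes tested was 0.09, with 61 higher and 33 lower, where the median of all probes was -0.01 and 47.6% were higher. At an unadjusted p under 0.05 there were 11, of which 10 were higher and 1 lower, beside 13.5% of all probes (6.77% higher and 6.69% lower). The groups did not overlap for 8 probes that were higher and 1 that was lower, beside 3.53% and 4.29% of all probes. The 11 became 5 when vehicle animal 5 was left out, 17 when vehicle animal 8 was, and 3 when estradiol benzoate animal 3 was. The share of all probes in these fits was 12.6%, 14.8% and 8.93%. The 10 higher ones were probes of Htr1a, Drd4, Gabrp, Gabra3, Gabrr2, Gria2, Gabrr1, Hrh3, Htr1f and Gabrb2, and the lower one was Chrm2; none reached background in any animal.

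The comparison of testosterone with vehicle asked the same of the androgen. No receptor probe passed, beside 0.0489% of all probes, and the smallest adjusted p was 0.210. The median difference was 0.15, with 69 of 94 higher, beside 47.7% of all probes. At an unadjusted p under 0.05 there were 21, of which 18 were higher and 3 lower (Chrna4, Chrm2 and P2ry2), beside 14.0% of all probes (6.62% higher and 7.43% lower). All 21 were probes that lay above background in no animal. The groups did not overlap for 9 that were higher and 2 that were lower, beside 2.45% and 3.14%. Without vehicle animal 5 the count of 21 was 13, beside 12.3% of all probes. With the animal number as a block the counts of 11 and 21 were 17 and 14. These were 18.1% and 14.9% of the receptor probes tested, beside 12.2% and 9.67% of all probes in that fit. Whether the shifts of the 2 hormones differ in size was not tested beyond the comparison of the hormones with each other.

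Both differences from vehicle share the 4 vehicle animals. The probes used to set background moved alike: their median was 0.10 with estradiol benzoate (31 of 50 higher) and 0.17 with testosterone (36 of 50 higher, 12 at an unadjusted p under 0.05). Over the 4754 probes of the array above background in no animal the medians were 0.04 and 0.06, with 55.7% and 57.8% higher. For the 84 tested receptor probes above background in no animal they were 0.12 and 0.20, with 67.9% and 72.6% higher. Over the 3923 probes above background in all 12 the medians were -0.05 and -0.05. For the 6 receptor probes above background they were -0.09 and 0.05, none at an unadjusted p under 0.05. The medians over all 94 receptor probes tested lay within 0.02 of those of the 50 background probes. Those of the 84 dim receptor probes were larger than those of the 4754 dim probes of the array. The part of low signal in the shift was not tested.

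**Figure D4:**
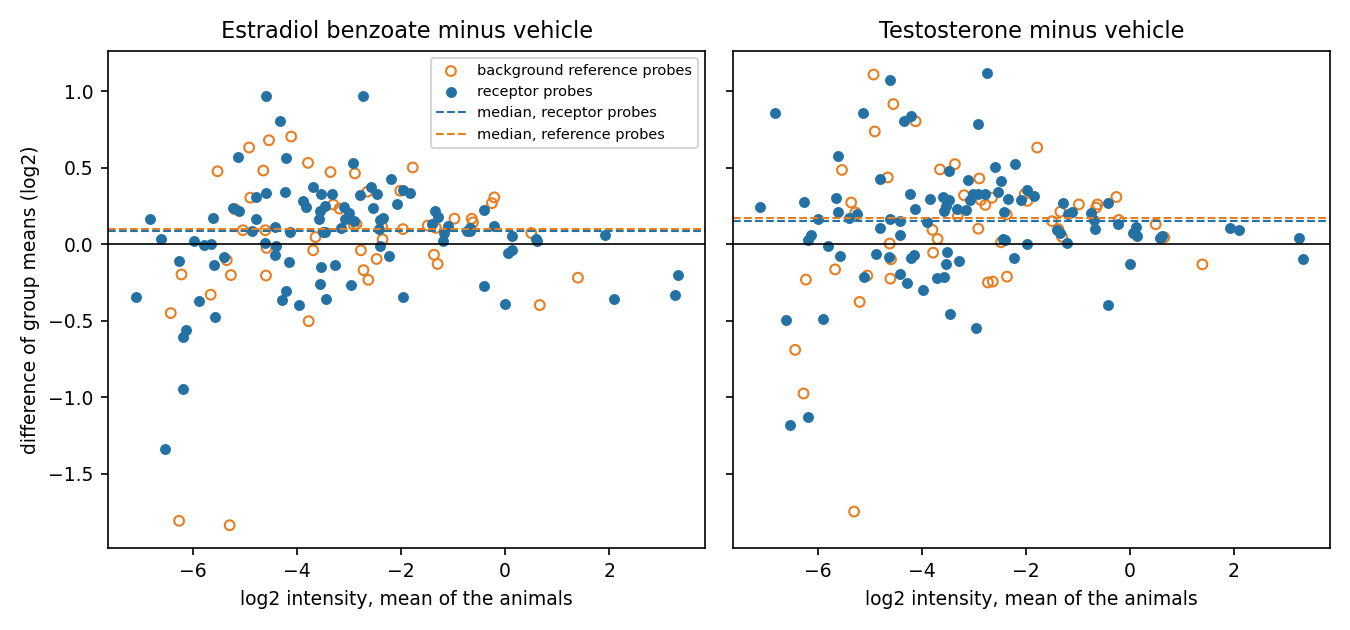
Difference of the group means (vertical axis, log2) against the mean log2 intensity (horizontal axis) for the 94 tested receptor probes (filled) and the 50 probes that set background (open), for estradiol benzoate minus vehicle (left) and testosterone minus vehicle (right). Dashed lines are the medians, 0.09 and 0.10 on the left and 0.15 and 0.17 on the right; the scatter is widest at the dim end.

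Set against each other, the hormones differed in no receptor probe after adjustment, beside 0.0293% of all probes, and the smallest adjusted p was 0.999. The median of estradiol benzoate minus testosterone was -0.07, with 28 higher and 66 lower, beside 48.5% of all probes higher. At an unadjusted p under 0.05 there was 1, Grm6, at -0.63 (SE 0.27), beside 4.13% of all probes (2.41% higher and 1.71% lower). The groups did not overlap for 2 probes, both lower with estradiol benzoate, Grin2c (819) at -0.09 and Htr5b at -0.98, beside 1.17% lower and 1.88% higher of all probes. Of the probes that were higher, Chrna4 at 0.52 (SE 0.31) and Gabrb1 (12001) at 0.59 (SE 0.41), came from arrays of an animal that differed widely: the Gabrb1 values of estradiol benzoate animal 3 were -0.10 on 1 array and -3.67 on the other. The F test for any difference among the 3 groups called 0 receptor probes, beside 0.00978% of all probes, with 14 at an unadjusted p under 0.05 (11.9% of all probes) and a smallest adjusted p of 0.176.

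The receptor with the smallest p of the estradiol benzoate comparison was Htr1a, the inhibitory serotonin receptor of neurons. It read -3.48, -3.53, -3.50 and -3.53 in vehicle animals 3, 4, 5 and 8. It read -3.14, -3.19, -3.17 and -3.23 with estradiol benzoate (animals 2, 3, 5 and 8) and -3.21, -3.33, -3.24 and -3.35 with testosterone (animals 2, 4, 6 and 8). All 8 treated animals lay above all 4 vehicle animals, in values that are 3.07 to 3.84 log2 below the background level of the same animal. The difference from vehicle was 0.33 (SE 0.07, unadjusted p 0.000454, limma adjusted p 0.125) with estradiol benzoate and 0.23 (SE 0.07, adjusted p 0.239) with testosterone. In a fit of all 24 arrays with the animal as a random block the adjusted p for estradiol benzoate was 0.0440, and over the 23 alternatives it ran from 0.0440 to 0.316.

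Gria2, the AMPA subunit that limits calcium entry, had the smallest p of the testosterone comparison. It read -3.47, -3.42, -3.26 and -3.31 with vehicle (animals 3, 4, 5 and 8), -3.23, -2.48, -2.79 and -2.83 with estradiol benzoate (animals 2, 3, 5 and 8), and -3.09, -2.80, -2.12 and -2.31 with testosterone (animals 2, 4, 6 and 8). Treated and vehicle animals did not overlap, and all 12 lay 2.38 to 3.70 below their own background level. The difference in probe signal was 0.78 (SE 0.21, adjusted p 0.210) with testosterone and 0.53 (SE 0.21, adjusted p 0.312) with estradiol benzoate. With all 24 arrays and a random block the testosterone value had an adjusted p of 0.0152, the lowest of 23 alternatives that reached up to 0.396.

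Drd4, a dopamine receptor that lowers cyclic AMP, had group means of -2.20 (SD 0.13, n = 4) with vehicle, -1.85 (SD 0.04) with estradiol benzoate and -1.85 (SD 0.16) with testosterone. Its 8 treated animals, from -2.06 to -1.66, lay above the vehicle range of -2.38 to -2.08, by 0.35 and 0.36 (SE 0.10, adjusted p 0.200 and 0.210). Drd3 and Drd5 differed by 0.27 (SE 0.11) and 0.42 (SE 0.18) with testosterone, with overlapping groups. Hrh3 differed by 0.43 and 0.52 (SE 0.18), and Htr4, a serotonin receptor that raises cyclic AMP, by 0.41 (SE 0.15) and 0.34 (SE 0.12) in its 2 probes with testosterone.

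Of the 13 GABA receptor probes tested, 5 had an unadjusted p under 0.05 in each comparison with vehicle, all higher, beside 6.77% and 6.62% of all probes, and none passed (smallest adjusted p 0.268 with estradiol benzoate and 0.229 with testosterone). All 5 lay below background in every animal. Gabrp differed from vehicle by 0.80 (SE 0.26) with either hormone, resting in part on vehicle animal 4, at -5.81 beside -4.68 to -4.48 in the other vehicle animals. Without that animal both differences were 0.49 (SE 0.14). Gabrr1, a subunit of retinal channels, differed by 0.97 and 1.07 (SE 0.39), and by 0.56 and 0.67 (SE 0.29) without vehicle animal 5, which read -6.49. Gabra3, a subunit known from neurons, differed by 0.32 and 0.33 (SE 0.12), the estradiol benzoate animals lying above all vehicle animals. Gabrr3, of retinal channels too, differed between the hormones by -0.20 (SE 0.14) with overlapping groups. The dimmer Gabrr2 probe differed by 0.24 and 0.30 (SE 0.09), while the brighter one differed by 0.22 (SE 0.14) and 0.08 (SE 0.15). For Gabrb2, 1 probe differed by 0.56 and 0.84 (SE 0.24) and the other by -0.08 and 0.17 (SE 0.22). The first Gabrb2 difference with estradiol benzoate went to 0.37 when animal 8 of the vehicle group was left out, and to 0.35 when animal 3 of the estradiol benzoate group was.

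Lower values were rarer. Chrm2, the muscarinic receptor of heart and nerve endings, read -3.08, -3.49, -3.01 and -3.20 with vehicle (animals 3, 4, 5 and 8), -3.41, -3.70, -3.67 and -3.42 with estradiol benzoate (animals 2, 3, 5 and 8), and -3.56, -3.59 and -3.81 with testosterone (animals 2, 6 and 8; animal 4 had no value). The Chrm2 values of vehicle animals 5 and 8 came from 1 array each. The testosterone animals lay below all vehicle animals, at -0.45 (SE 0.14, adjusted p 0.243), and estradiol benzoate minus vehicle was -0.36 (SE 0.13, adjusted p 0.300). Chrna4, a nicotinic subunit of the brain, differed by -1.13 (SE 0.31, adjusted p 0.210) with testosterone. Its duplicate arrays were far apart, for testosterone animal 2 at -2.99 and -12.29, and on the AA arrays alone the difference was 0.69, so that no direction can be given.

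**Figure D5:**
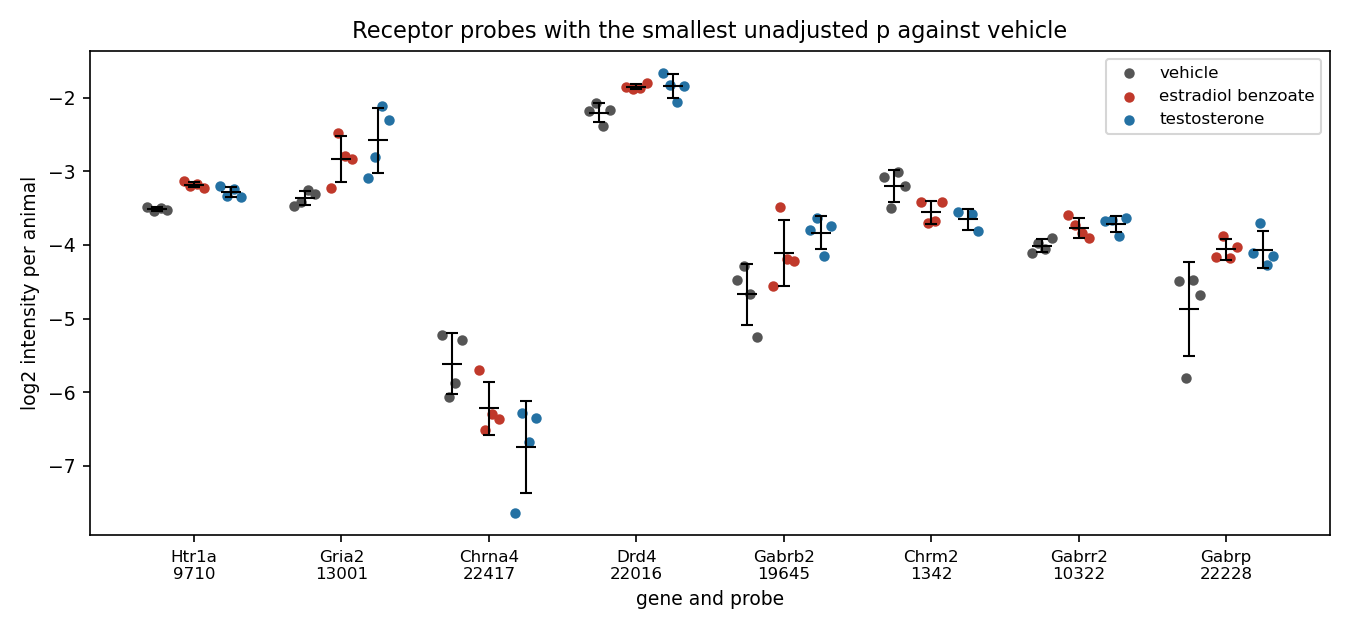
Log2 intensity of each animal (vertical axis) for 8 receptor probes with the smallest unadjusted p against vehicle (horizontal axis, gene and probe number), by treatment; the bar is the mean and the whiskers 1 SD (n = 4 animals a group, 3 for Chrm2 with testosterone). All lie below the lowest background level of -0.12; the vehicle points of Htr1a lie between -3.53 and -3.48, under all treated points.

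Genes that make, release, take up or break down the ligands, and the G protein machinery after the receptors, gave no called member in any comparison. Each gene is represented by its brightest probe. Of the 18 purine genes measured (median -0.05 with estradiol benzoate and 0.08 with testosterone against vehicle), 6 lay above background in all 12 animals. Nt5e, the enzyme that forms adenosine outside the cell, was higher with estradiol benzoate than with testosterone by 0.68 (SE 0.16, adjusted p 0.337) and above background in 5 animals. Slc28a2, a nucleoside transporter above background in all 12, differed by -0.41 (SE 0.14, adjusted p 0.277) with testosterone.

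Of the 10 serotonin and histamine genes measured (medians 0.05 and 0.02), Slc6a4, the serotonin transporter, lay above background in all 12 animals and differed by -0.43 (SE 0.13, adjusted p 0.226) with estradiol benzoate. Slc22a3, an uptake carrier for amines also above background throughout, differed by 0.40 (SE 0.13, adjusted p 0.259) with testosterone. The 14 acetylcholine and dopamine genes had medians of 0.28 and 0.26. In each comparison 12 of 14 were higher, beside 47.6% and 47.7% of all probes. Of the 14, 11 lay above background in no animal, and of all such probes of the array 55.7% and 57.8% were higher. Bche, a cholinesterase, differed by 0.57 and 0.58 (SE 0.19) and Slc18a3, the vesicular acetylcholine transporter, by 0.38 and 0.41 (SE 0.13), both below background.

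The 33 glutamate and GABA genes had medians of 0.05 and 0.08, and 24 of them lay above background in no animal; Shank3, a synaptic scaffold above background in all 12, differed by -0.30 (SE 0.10, adjusted p 0.263) with testosterone. The 36 G protein genes had medians of 0.00 and -0.06. Rgs5 and Rgs4, which shorten G protein signals in vascular muscle, were above background in all 12 animals and differed by -0.49 (SE 0.17, adjusted p 0.282) and -0.53 (SE 0.19, adjusted p 0.297) with estradiol benzoate. Prkar1a, a regulatory subunit of protein kinase A, differed by 0.34 (SE 0.10, adjusted p 0.243) with testosterone.

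Marker lists of cells that could carry these receptors were set beside the groups, as the mean deviation of their genes from the mean of the animals. Of 15 neuron genes measured, Prph alone lay above background in all 12 animals and 12 did in none; the list lay between -0.07 and 0.12 with vehicle, -0.11 and -0.04 with estradiol benzoate and -0.13 and 0.28 with testosterone. Of 9 mast cell genes 4 were above background, the list lying between -0.01 and 0.20, -0.27 and -0.05, and -0.09 and 0.34. Vehicle and estradiol benzoate animals did not overlap in the mast cell list. Its medians against vehicle were -0.26 and -0.01, with 3 and 4 of 9 higher, beside 47.6% and 47.7% of all probes. Of 8 macrophage genes 6 were above background, the list lying between -0.16 and 0.48, -0.17 and 0.23, and -0.29 and 0.09. The macrophage medians were 0.03 and -0.26, with 4 and 1 of 8 higher. No gene of these 2 lists was called. The part of these cells in the Adora3, P2ry6 and P2rx7 values was not tested.

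Further lists also lay apart between the groups. Of 13 lymphocyte genes, Cd74 alone lay above background in all 12 animals, and 11, with Cd3d, Cd4 and Cd8a among them, in none. All 13 were higher with either hormone (medians 0.44 and 0.37), beside 47.6% and 47.7% of all probes. Among probes of the array above background in no animal, 55.7% and 57.8% were higher. At an unadjusted p under 0.05, 6 and 4 of the 13 were higher, beside 6.77% and 6.62% of all probes, and none was called. The list lay between -0.41 and -0.09 with vehicle, -0.02 and 0.39 with estradiol benzoate and 0.04 and 0.24 with testosterone, without overlap of vehicle and treated animals. Of 13 adipocyte genes 8 lay above background, Adipoq and Fabp4 among them. The medians of the 12 tested were 0.26 and 0.24, with 9 higher in each comparison, beside 47.6% and 47.7% of all probes. The adipocyte list lay between -0.22 and -0.06, -0.01 and 0.13, and -0.21 and 0.39. Of 11 hepatocyte genes none lay above background in all 12 animals. Their medians were -1.42 and -1.54, and the vehicle animals read 1.19, 0.61, 3.05 and -0.41 (animals 3, 4, 5 and 8) beside -0.85 to -0.22 and -0.84 to -0.47 in the treated groups. Without vehicle animal 5, the highest of these, the receptor counts at an unadjusted p under 0.05 went from 11 to 5 and from 21 to 13. Without vehicle animal 3, at 1.19, they went to 8 and 17, and without estradiol benzoate animal 3 to 3 and 20. They rose to 16 and 23 without vehicle animal 4, at 0.61, and to 17 and 26 without vehicle animal 8, at -0.41. The shares of all probes were 13.5% and 14.0% with every animal. They were 12.6% and 12.3% without vehicle animal 5, and 9.75% and 9.84% without vehicle animal 3. They were 8.93% and 12.4% without estradiol benzoate animal 3. Without vehicle animals 4 and 8 they were 16.2% and 14.9%, and 14.8% and 16.1%. Medians of the pancreas list were 2.85 and 0.32. Those of the Schwann cell, endothelial, smooth muscle, platelet, intestinal epithelium and striated muscle lists lay between -0.13 and 0.12 against vehicle. Of 5 Schwann cell genes 3 were higher in each comparison with vehicle, beside 47.6% and 47.7% of all probes. Their list lay between -0.22 and -0.02 with vehicle, 0.04 and 0.11 with estradiol benzoate and -0.14 and 0.35 with testosterone. Vehicle and estradiol benzoate animals thus did not overlap in the mean of the Schwann cell list. Within it, Mbp differed by 1.02 (SE 0.28, limma adjusted p 0.196) with estradiol benzoate, Sox10 by 0.26 and Pmp22 by -0.16, at a list median of 0.04. The part of Mbp in the list mean was not tested. The part of these cells in the receptor values was not tested.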

How the data were processed

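Total RNA (2 µg) of each artery preparation was made into cRNA, and 10 µg was hybridised for 18 h at 37 C, per the labels. The deposited values are linear spot intensity, with an array median near 1; for the authors' software, background correction and scaling no source used here gives a name. Blank cells and values at or below 0 (5 among the receptor probes) were taken as missing, log2 of the deposited intensity was taken without a pseudocount, and both arrays of an animal were averaged. The 10228 probes with values in at least 3 animals of each group were fitted with limma 3.58.1 in R 4.3.3 (group means, 9 residual and 2.51 prior degrees of freedom), with two-sided tests and Benjamini-Hochberg adjustment over all of them; the fit was tested on simulated data. Of the receptor probes, 94 (75 genes) were tested. Gabrg1, a probe of Htr5a with values in 1 animal and a probe of P2rx6 were not. The number of animals limits the precision. Whether animals came from separate litters is not given, and p-values measure the spread between them.

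Named were the probes above background, the 8 smallest p of each comparison, receptors with a textbook role in vessels, and the lowest and highest probe of each family; of other lists, up to 3 genes of the smallest p. The families, gene lists and marker lists were chosen with earlier results of these data known. Probes of Htr1f, Htr4, Htr5a, Htr5b, Grm5, P2rx2, P2rx5, P2rx6 and Gabrg1 were named after their values were seen, as were animals that lay apart from their group. Alternatives covered quantile normalization, a floor, a pseudocount of 0.1, filters, a block for the animal number, all 24 arrays, either array set alone, 2 groups alone, a trended prior, leaving out each animal, and other background rules.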

Additional observations from a re-analysis of the deposited data

Results flagged for a closer look

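In 15 of 281 groups of 4 animals, the highest or lowest animal stood apart from the others of its group by more than the 95% value of Dixon's test; chance gives about 1 in 20 groups. Of the 15 values, 14 rest on 2 arrays. The widest was Grm5 (1339) in vehicle animal 5, at -7.08 beside -2.27 to -2.13, a value from 1 array. P2rx5 read -3.15 in testosterone animal 8, beside -1.60 to -1.29. Gabrp read -5.81 in vehicle animal 4, beside -4.68 to -4.48. Gria1 read -5.49 in estradiol benzoate animal 2, beside -6.84 to -6.66, and Gria3 -0.57 in the same animal, beside -0.12 to -0.08. Testosterone animal 2 was the highest of its group in Chrna6 (-0.36), Chrnb2 (-0.013) and Htr6 (10345, -0.47). Testosterone animal 4 was the lowest in Gabra6 (-4.34) and the highest in Grin2d (-3.29), and animal 6 the lowest in Gabrr2 (10322, -3.88). Estradiol benzoate animal 5 was the lowest in Drd5 (-3.37) and Htr4 (10810, -2.65), and animal 8 the highest in Chrne (-2.27) and the lowest in Htr6 (12912, -5.02).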

How the results depend on the processing

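No receptor probe was called under any alternative, except with all 24 arrays and the animal as a random block, where 1 was called for estradiol benzoate minus vehicle (Htr1a, adjusted p 0.0440), 1 for testosterone minus vehicle (Gria2, 0.0152) and 1 by the F test (Gria2, 0.0229). That fit called 224 and 151 probes of the array in the comparisons with vehicle. The counts at an unadjusted p under 0.05 (11, 21, 1 and 14 for estradiol benzoate minus vehicle, testosterone minus vehicle, estradiol benzoate minus testosterone and the F test) were 0 each among the 10 receptor probes above the median probe. Without each animal in turn they ran from 3 to 17, 13 to 26, 0 to 4 and 9 to 19. The shares of all probes ran from 8.93% to 16.2%, 9.84% to 16.1%, 3.05% to 4.99% and 8.48% to 13.8%. The F count was 9 without vehicle animal 3, vehicle animal 5 or estradiol benzoate animal 3. The F count was 9 with log2(value + 0.1) and 6 with 24 arrays. The count of 1 was 0 with quantile normalization, with log2(value + 0.1) and with a trended prior, 3 on the AA arrays, and 2 on the AB arrays, with 24 arrays, with the 2 groups alone and with values on both arrays only, an alternative chosen after seeing the data.

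The median differences (0.09, 0.15 and -0.07) were 0.040, 0.061 and -0.040 with log2(value + 0.1), and -0.046 and 0.054 against vehicle among probes above the median. Leaving out each animal gave 0.054 to 0.13, 0.11 to 0.17 and -0.10 to -0.022. The number of probes above background (6 per group) was 12, 11 and 11 for vehicle, estradiol benzoate and testosterone with the 90th percentile, and 3 in the first 2 groups with the highest background probe. Leaving out each animal gave 6 to 7 for vehicle. Of 40 differences of single probes, 11 had the opposite sign under at least 1 alternative, 9 of them for probes above background whose difference was smaller than its SE. For estradiol benzoate minus vehicle these were Gabra5 (to -0.054) and Htr2c (1113, to -0.16 on the AB arrays). For testosterone minus vehicle they were Gabra5 (to -0.076), Htr2c (to -0.085) and both P2rx1 probes (to -0.041 and -0.065), and for estradiol benzoate minus testosterone Gabra5 (to 0.11), Htr2c (to 0.0096) and P2ry6 (to 0.031). Chrna4 was 0.69 on the AA arrays for testosterone minus vehicle. For estradiol benzoate minus testosterone, Chrna4 was -0.26 with a floor, -0.10 with log2(value + 0.1) and -0.72 on the AA arrays. The cause of these changes was not tested.

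With the animal number as a replicate block, the counts at an unadjusted p under 0.05 were 17 for estradiol benzoate minus vehicle, 14 for testosterone minus vehicle and 3 for estradiol benzoate minus testosterone, with 60, 61 and 44 of 94 probes higher (61, 69 and 28 without the block). Of all probes, 12.2%, 9.67% and 6.20% were at an unadjusted p under 0.05 in that fit. The receptor medians were 0.079 for testosterone minus vehicle and -0.014 for estradiol benzoate minus testosterone. The labels do not say that a number marks related animals. Same-numbered vehicle and estradiol benzoate animals correlated in their deviations at -0.06, 0.06 and 0.12 (numbers 3, 5 and 8), vehicle and testosterone animals at -0.12 and 0.04 (4 and 8), and estradiol benzoate and testosterone animals at 0.30 and 0.04 (2 and 8). Animals of different numbers correlated at -0.28 to 0.24, so that 0.30 was the highest of all pairs. So few same-numbered pairs cannot decide whether a number marks related animals, and the animals were treated as unpaired. The block changed no call among the receptor probes. Over all probes the calls went from 5 to 0 for testosterone minus vehicle, 3 to 0 for estradiol benzoate minus testosterone and 1 to 0 for the F test.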
